A study of Caenorhabditis elegans with 33 samples.

Results

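The genes described here encode the vacuolar ATPase (V-ATPase) and the lysosomal proteases of Caenorhabditis elegans. They are all genes of the count table named vha, asp or cpr with a number, together with unc-32, cpl-1, cpz-1, lmp-1 and lmp-2. This gave 48 of the 17907 genes in the table. There were 21 V-ATPase genes, 15 aspartyl proteases, 10 cysteine proteases and 2 lysosomal membrane protein genes. All 48 passed the filter on low counts.

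The V-ATPase is a rotary proton pump. Its cytosolic V1 sector hydrolyses ATP and its membrane V0 sector carries protons into lysosomes and other acidic compartments. Lysosomal cathepsins, which are aspartyl or cysteine proteases, work in the acidic lumen that the pump maintains. In the worm the intestine is rich in lysosome-related granules and in digestive proteases, and V-ATPase is also abundant in the excretory canal and the epidermis.

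Polyadenylated RNA was sequenced from whole hermaphrodites at adult day 2 in 12 groups. Wild-type N2 worms were compared with mxl-2(tm1516) and eat-2(ad465) single mutants and with the double mutant eat-2(ad465);mxl-2(tm1516). mxl-2 encodes a Max-like partner of the Myc-family factor MML-1, and eat-2 mutants pump food slowly and serve as a genetic model of dietary restriction. Each strain was fed HT115(DE3) bacteria with the empty vector L4440 (EV) or with double-stranded RNA against daf-16 (FOXO) or pha-4 (FOXA). Animals of all groups grew at 16 °C up to L4 and at 20 °C afterwards, and received FUdR at L4, which blocks production of progeny. There were 3 libraries per group and 2 in each eat-2 group, each from a separately synchronised population of pooled animals. Because RNA came from whole animals, fewer cells of a type and less RNA per cell cannot be told apart.

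Total counts per library ran from 20199019 to 31483909. The mutated and targeted genes were examined first. mxl-2 was at 56.3 to 72.0 CPM (counts scaled to library size) in N2 EV and at 4.51 to 5.45 CPM in mxl-2 EV, and the double mutant was at 2.79 to 3.64 CPM on EV. The eat-2 transcript had 22 to 31 counts in N2 EV and 1 and 3 counts in eat-2 EV. daf-16 RNAi went with a lower mean of daf-16 in each strain, with overlapping replicates in eat-2. pha-4 was lower on pha-4 RNAi without overlap in N2 alone, at 9.29, 17.8 and 14.9 CPM on EV and 4.82, 4.53 and 5.86 CPM on RNAi. The groups overlapped in mxl-2, at 7.31, 10.8 and 17.4 CPM on EV and 7.68, 6.2 and 6.01 CPM on RNAi. They overlapped in eat-2 too, at 14.05 and 10.5 CPM on EV and 5.10 and 13.6 CPM on RNAi. pha-4 went against its labels in the double mutant, at 3.99, 3.27 and 4.22 CPM in the libraries labelled eat-2;mxl-2 EV and at 7.74, 12.8 and 10.8 CPM in those labelled pha-4 RNAi. Every direction below that rests on libraries labelled eat-2;mxl-2 EV or eat-2;mxl-2 pha-4 therefore rests on labels that this gene contradicts. The library numbers in the labels were 49 to 57 for the double mutant and 1 to 27 for the other strains. A batch behind the numbers and the double-mutant genotype cannot be told apart.

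Replicates did not always resemble each other. Over the 48 genes, 15 of 33 libraries correlated best with a library of another group. eat-2 EV replicate 2 and eat-2 daf-16 RNAi replicate 1 were nearest to each other, with r = 0.841, and stood apart from the other replicate of their own group. eat-2 EV replicate 1 and eat-2 daf-16 RNAi replicate 2 were also nearest to each other, with r = 0.776. All 4 libraries thus paired across the RNAi labels, which every value of eat-2 EV and eat-2 daf-16 RNAi below rests on. Whether samples were exchanged was not tested. The summed level of 8 intestinal markers was 6390 CPM in eat-2 EV replicate 2 and 7340 CPM in eat-2 daf-16 RNAi replicate 1, against 40000 and 47700 CPM in the other replicates of these groups. The summed level of 8 oocyte and embryo markers was 1690 and 1410 CPM, against 16400 and 17800 CPM. In mxl-2 EV the summed sperm markers were 2270, 1570 and 14.6 CPM. Libraries whose removal changes the call of a member are given with it. For genes outside the 48 the effect of leaving out a library was not examined.

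Levels were compared between genes as TPM, a share of transcripts that accounts for transcript length. The aspartyl proteases spanned the widest range. In N2 EV, asp-6 stood at 3065 ± 34.1 TPM (SD, n = 3), asp-1, an intestinal protease, at 2529 ± 411 TPM (SD, n = 3), and asp-3, a cathepsin D-like protease linked to necrotic death of neurons, at 1257 ± 30.9 TPM (SD, n = 3). asp-15 was at 0 or 1 count in each N2 EV library, and asp-9 at 2 to 4 counts.

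Among the cysteine proteases, cpl-1, a cathepsin L needed for embryonic development and yolk processing, was at 1086 ± 180 TPM (SD, n = 3) in N2 EV. cpr-1, the most abundant cathepsin B-like gene, was at 1079 ± 198 TPM (SD, n = 3). These differed by less than their SDs. lmp-1, which encodes a LAMP-like lysosomal membrane protein, was at 159 ± 1.70 TPM (SD, n = 3), and its relative lmp-2 at 8.01 ± 1.55 TPM (SD, n = 3).

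V-ATPase genes lay in a narrower range. In N2 EV the proteolipid gene vha-2 was highest at 444 ± 20.2 TPM (SD, n = 3), followed by the V1 F subunit gene vha-9 at 312 ± 24.2 TPM (SD, n = 3). Exons of another gene, R10E11.6, cover 22.7% of the exon length of vha-2, and vha-2 and vha-3 are close copies of each other. Whether reads were counted by strand is not stated, so the values of both are uncertain.

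The V0 a subunit is encoded by 4 genes with different tissues. Their N2 EV levels were 54.6 ± 2.84 TPM for vha-6, the intestinal form, 50.9 ± 2.97 TPM for unc-32, the main neuronal form, 34.5 ± 6.01 TPM for vha-5, the form of the epidermis and excretory canal, and 16.5 ± 2.72 TPM for vha-7 (SD, n = 3 for each). The first 2 of these levels overlapped within their SDs. vha-17, the e subunit gene, led the remaining V0 and accessory genes at 201.5 ± 35.1 TPM (SD, n = 3).

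**Figure D1:**
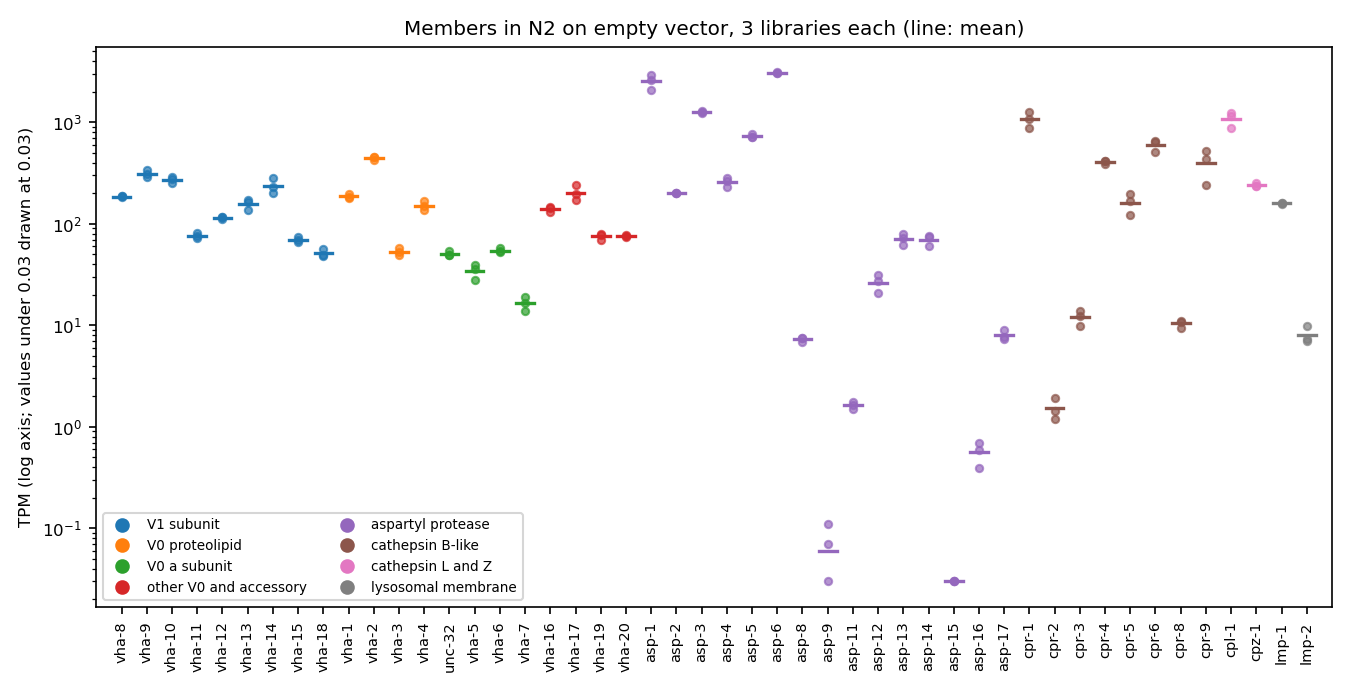
TPM of the 48 genes in N2 on empty vector, on a log axis. Points are the 3 libraries and lines their mean, with values under 0.03 drawn at 0.03. The aspartyl proteases run from asp-15 at the bottom of the axis to asp-6 at 3065 TPM, while the V-ATPase genes lie between 16.5 TPM (vha-7) and 444 TPM (vha-2).

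Several members are neighbours on chromosome V of WBcel235. asp-6 (8267511 to 8268937, minus strand), asp-12 (8269210 to 8272056, plus strand), asp-5 (8272385 to 8274044, plus strand) and asp-11 (8274353 to 8275757, plus strand) lie side by side. asp-11 is annotated there as a pseudogene. A second group holds asp-17 (19035723 to 19037322), asp-16 (19039030 to 19042605), asp-15 (19043215 to 19044853) and asp-1 (19049562 to 19050752), all on the minus strand. Reads shared between such related genes could have been split by the authors' counting.

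Strains and treatments were compared by edgeR's quasi-likelihood test with all 33 libraries in 1 model. A gene was called at a Benjamini-Hochberg adjusted p under 0.05 over all 17354 genes tested, and log2 fold changes are given with a standard error (SE). For edgeR the SE was worked out as the absolute log2 fold change divided by the square root of the test's F statistic. No V-ATPase member was called in any of the 13 comparisons of 2 groups, unlike the related gene spe-5, which is given further below. Of the tests of V-ATPase members 16 had an unadjusted p under 0.05. With another library scaling, RLE factors, edgeR called 1. DESeq2 called 4, limma on log2(TPM + 1) called 6, and edgeR with each pair of groups fitted alone called 23. The 4 DESeq2 calls lie in the double mutant against eat-2, where DESeq2 called 4154 genes, and on daf-16 RNAi in the double mutant, where it called 3030. edgeR called 3198 and 1658 genes there. The 6 limma calls lie in these and in the double mutant against N2, where limma called 2942, 1974 and 2440 genes. The 23 calls lie in 4 comparisons with the double mutant in which the pairwise fit called between 3557 and 8732 genes.

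vha-15, an H subunit gene of the V1 sector, was the V-ATPase member nearest to a call between strains. It was at 192, 234 and 205 CPM in the libraries labelled eat-2;mxl-2 EV. It was at 119.5 and 97.6 CPM in eat-2 EV and at 143, 127 and 126 CPM in N2 EV. The double-mutant libraries were all above both other groups. The log2 fold change against eat-2 was 0.95 ± 0.36 (SE), with an edgeR adjusted p of 0.0625. In DESeq2 it was 1.02 ± 0.36 (SE), with an adjusted p of 0.0251. In edgeR with RLE factors it was 1.02 ± 0.36 (SE), with an adjusted p of 0.0495, so the call depended on the scaling. That fit called 3120 genes in this comparison.

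The first comparison asked what loss of mxl-2 does in fully fed animals. In mxl-2 against N2 on EV no member was called, where 0.0288% of all tested genes were. At an unadjusted p under 0.05 there were 2 members, vha-7 and vha-8, and DESeq2 called no member either. The V-ATPase genes had positive values in 19 of 21 cases, with a median log2 fold change of 0.42 against 0.00 over all genes. Of the proteases, 12 of 15 aspartyl genes (median 0.35) and 9 of 10 cysteine genes (median 0.35) were also positive. The libraries of the groups did not overlap for 12 of the 21 V-ATPase genes, all of them higher in mxl-2. Of all 17354 tested genes 38.7% did not overlap, with 2810 higher and 3908 lower. The members share libraries and are not independent.

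vha-6, the intestinal a subunit gene, had the highest V-ATPase value there. It was at 161, 155 and 159 CPM in N2 EV and at 311, 253 and 537 CPM in mxl-2 EV. All 3 mxl-2 libraries lay above the N2 libraries, and 1 of them stood well above the other two. The log2 fold change was 1.22 ± 0.61 (SE), with an edgeR adjusted p of 0.385. The summed intestinal markers were 61300, 50200 and 107000 CPM in mxl-2 EV and 31600, 50800 and 45000 CPM in N2 EV. Their part in the result was not tested.

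The slow-feeding strain was compared with N2 next. In eat-2 against N2 on EV 1 member was called, and it was lower, where 0.789% of all tested genes were called and 0.617% were called lower. It was cpr-5, a cathepsin B-like gene (chromosome V, 1132598 to 1134036, minus strand). cpr-5 was at 151, 234.5 and 190.1 CPM in N2 EV and at 62.3 and 27 CPM in eat-2 EV. Both eat-2 libraries lay under every N2 library. The fitted log2 fold change was -2.10 ± 0.50 (SE), with an edgeR adjusted p of 0.0461. The call was lost, and the count was 0, without eat-2 EV replicate 2 or without any 1 of the 3 N2 EV libraries. Without eat-2 EV replicate 1, 2 members were called. The summed sperm markers were 3.5 and 34.3 CPM in eat-2 EV and 677 to 826 CPM in N2 EV. The summed epidermal markers were 446 and 377 CPM, against 1380 to 1470 CPM. Their part in the result was not tested.

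cpr-5 was low in the other eat-2 groups too, at 47.0 and 70.2 CPM on daf-16 RNAi and at 66.3 and 110 CPM on pha-4 RNAi. In the libraries labelled eat-2;mxl-2 EV it was at 168, 187 and 176 CPM, within the range of N2 EV. All 3 were above both eat-2 EV libraries. Against eat-2 EV the log2 fold change was 1.99 ± 0.50 (SE), with an edgeR adjusted p of 0.0117. It was 1.43 and not called without eat-2 EV replicate 2. In mxl-2, cpr-5 was at 348, 264 and 135 CPM on EV and at 31.95, 78.4 and 95.5 CPM on pha-4 RNAi, without overlap.

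That fall in mxl-2 on pha-4 RNAi was the 1 member call of its comparison, where 0.887% of all tested genes were called and 0.0922% were called lower. pha-4 itself overlapped between these groups. The log2 fold change of cpr-5 was -1.86 ± 0.43 (SE), with an edgeR adjusted p of 0.0356. Leaving out mxl-2 EV replicate 1 or 2, or mxl-2 pha-4 replicate 1 or 2, brought the count to 0, and leaving out mxl-2 EV replicate 3 brought it to 2. The summed epidermal markers were 219, 355 and 2300 CPM on pha-4 RNAi and 1820 to 2230 CPM on EV. Sperm markers summed to 24.2, 16.4 and 1040 CPM on pha-4 RNAi and to 2270, 1570 and 14.6 CPM on EV. The part of either list in the result was not tested. In the same comparison all 21 V-ATPase genes had values below 0, with a median log2 fold change of -0.21 against 0.02 over all genes, and 0 of them were at an unadjusted p under 0.05. On the same RNAi 19 of 21 were positive in N2, with a median of 0.53 against -0.01 over all genes. The summed V-ATPase TPM in N2 was 4488, 3858 and 2886 on pha-4 RNAi and 3065, 2824 and 2990 on EV. The third RNAi library thus lay within the EV range. In eat-2 15 were positive, with a median of 0.25, and in the double mutant 12, with a median of 0.05. These differences between strains in the V-ATPase medians were not tested.

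**Figure D2:**
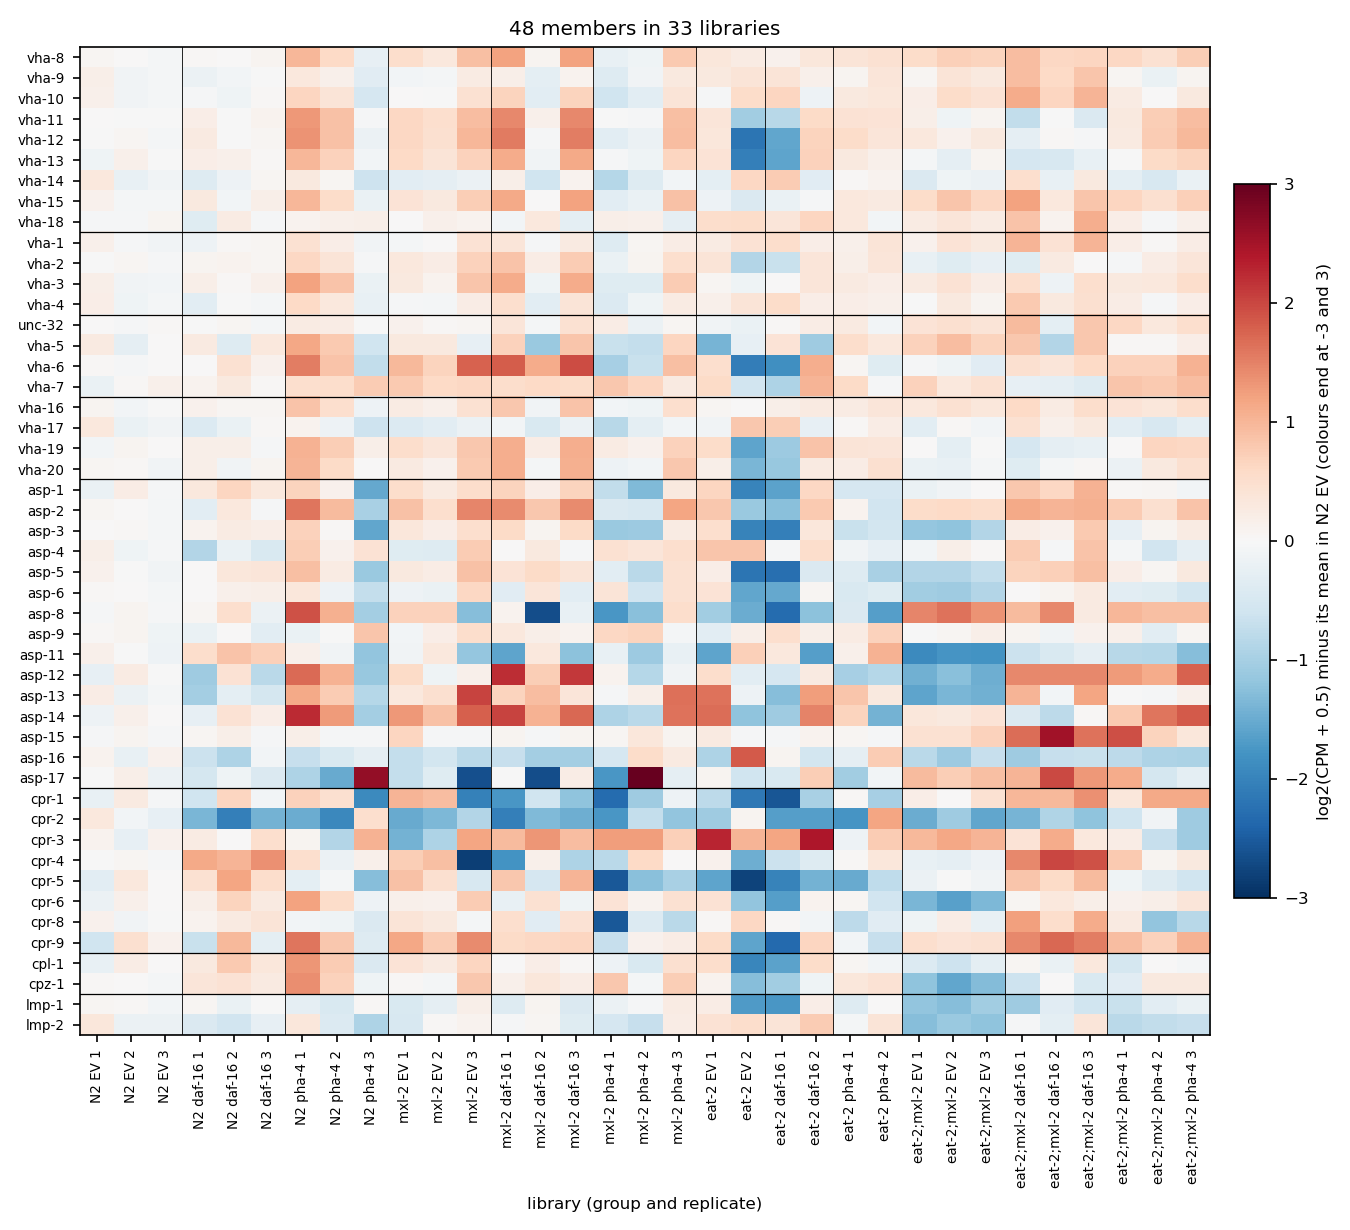
Each of the 48 genes (rows, by role) in each of the 33 libraries (columns, by group), as log2(CPM + 0.5) minus its mean in N2 EV. eat-2 EV 2 and eat-2 daf-16 1 share low values of vha-6, vha-12, vha-13 and vha-19 and of several proteases, and the 3 libraries labelled eat-2;mxl-2 EV share low values of asp-11, asp-12, asp-13, cpr-6, cpz-1 and lmp-2.

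The V-ATPase genes did not move as a single block between replicates. Deviations of log2 CPM from the group mean were correlated between members over the 33 libraries, with a median Pearson r of 0.49 over the 210 V-ATPase pairs and of -0.005 over pairs of all tested genes. The V-ATPase values ran from -0.81 to 0.99, and 46 of the pairs were negative. Without the 6 eat-2 libraries the median was 0.73 and 36 pairs were negative. Members of a library share its depth and its tissue makeup, so these values describe the libraries.

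The genes most like vha-12, the B subunit of the V1 sector, were vha-13, vha-20, vha-11, vha-19, vha-2 and vha-6, with r between 0.93 and 0.98 over the 33 libraries. vha-13 encodes the catalytic A subunit of V1, and vha-11 the C subunit. The genes most like vha-14, the D subunit, were vha-17, vha-10, vha-4, vha-5, vha-1 and vha-9, with r between 0.83 and 0.95. Between vha-12 and vha-14 the r was -0.11 over all libraries and 0.66 without the eat-2 libraries.

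The opposite movement of these 2 sets was seen in the eat-2 EV and eat-2 daf-16 RNAi libraries. Without the eat-2 libraries the r with vha-12 was 0.85 for vha-10, 0.73 for vha-4, 0.73 for vha-9 and 0.58 for vha-17, and was negative only for vha-7 and vha-18. vha-13 was at 535 CPM in eat-2 EV replicate 1 and 98.3 CPM in replicate 2, and at 135 and 659 CPM in the eat-2 daf-16 RNAi replicates. vha-14 went the other way, at 225 and 427 CPM and at 469 and 221 CPM. So did vha-17, at 99.5 and 189 CPM and at 179 and 90.3 CPM. The ratio of vha-13 to vha-14 CPM was therefore 0.23 in eat-2 EV replicate 2 and 0.287 in eat-2 daf-16 RNAi replicate 1. It was 2.38 and 2.99 in the other replicates. A and D subunits are both part of the V1 sector.

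Across the rest, the ratio of vha-13 to vha-14 was 0.731, 1.22 and 1.02 in the double mutant on daf-16 RNAi. It was 1.91, 1.32 and 1.74 in the libraries labelled eat-2;mxl-2 EV and 1.07, 1.87 and 1.56 in N2 EV. Because eat-2 EV and eat-2 daf-16 RNAi had 2 libraries each, 1 of which stood apart, their V-ATPase means carried large errors. The 2 eat-2 pha-4 RNAi libraries lay closer together, with ratios of vha-13 to vha-14 of 1.76 and 1.5. vha-12 was at 293 and 50.4 CPM in eat-2 EV. Without eat-2 EV replicate 1, edgeR called vha-12, vha-13, vha-17 and vha-19 in the double mutant against eat-2. It then also called vha-12, vha-13 and vha-19 in eat-2 on pha-4 RNAi against EV. Without eat-2 EV replicate 2 it called no V-ATPase gene in either.

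**Figure D3:**
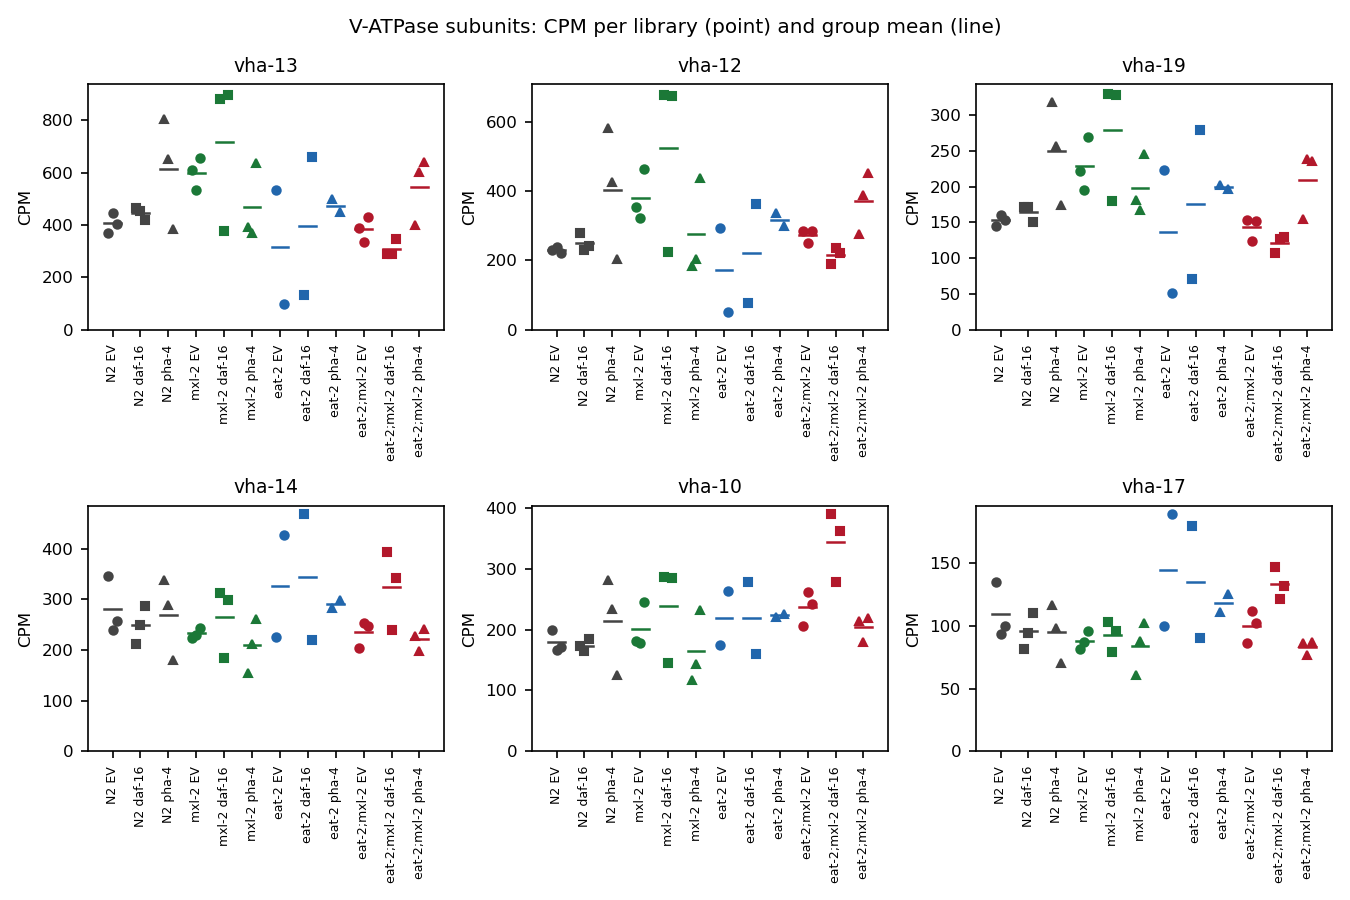
CPM of 6 V-ATPase genes per library (points) and group mean (lines) in the 12 groups. The top row (vha-13, vha-12, vha-19) and the bottom row (vha-14, vha-10, vha-17) go in opposite directions in the eat-2 EV and eat-2 daf-16 RNAi replicates, as with vha-13 at 98.3 CPM where vha-14 was at 427 CPM.

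Most protease calls involved the double mutant. In the libraries labelled eat-2;mxl-2 EV against N2 EV, 5 members were called lower and 0 higher, where 12.1% of all tested genes were called and 7.15% were called lower. They were asp-11, cpz-1, cpr-6, lmp-1 and lmp-2. The count of 5 of 48 is near that background. It was 2 without any 1 of the 3 double-mutant libraries and 3 without N2 EV replicate 2 or 3. The comparisons of these libraries with N2, with eat-2 and with mxl-2, and both RNAi comparisons in the double mutant, share the same 3 EV libraries.

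lmp-2 (chromosome X, 1125615 to 1128307, plus strand) was at 10.3, 7.14 and 7.14 CPM in N2 EV and at 3.03, 3.47 and 3.22 CPM in the libraries labelled eat-2;mxl-2 EV. It was at 11.1 and 11.9 CPM in eat-2 EV and at 5.65, 8.26 and 8.76 CPM in mxl-2 EV. The double-mutant libraries were the lowest of all 4 strains, with no overlap. This gave a log2 fold change of -1.34 ± 0.31 (SE) against N2 (edgeR adjusted p 0.00591), -1.82 ± 0.34 (SE) against eat-2 (edgeR adjusted p 0.00139) and -1.22 ± 0.31 (SE) against mxl-2 (edgeR adjusted p 0.0147). Its relative lmp-1 was at 177, 172 and 160 CPM in N2 EV and at 74.2, 69.4 and 81.6 CPM in the double mutant. That log2 fold change was -1.18 ± 0.37 (SE), with an edgeR adjusted p of 0.0403. Leaving out any 1 of the 6 libraries ended the lmp-1 call. The lmp-2 call against mxl-2 was lost without mxl-2 EV replicate 2 or 3.

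cpr-6 (chromosome X, 6607207 to 6609045, plus strand), a cathepsin B-like gene, was at 709, 885 and 806 CPM in N2 EV. It was at 306, 258 and 315 CPM in the libraries labelled eat-2;mxl-2 EV, all under the N2 libraries. It was at 882, 868 and 1360 CPM in mxl-2 EV, and at 1075 and 348 CPM in eat-2 EV. cpr-6 had a log2 fold change of -1.45 ± 0.39 (SE) on the log2 scale against N2 (edgeR adjusted p 0.0166) and -1.82 ± 0.40 (SE) against mxl-2 (edgeR adjusted p 0.00497). Against eat-2 it was -1.28 ± 0.42 (SE), with an edgeR adjusted p of 0.0381. The last call was lost without eat-2 EV replicate 1, at -0.25, and without any 1 of the 3 double-mutant libraries. The call against N2 held in 1 of 6 fits that left out a library, the one without N2 EV replicate 1.

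cpz-1, a cathepsin Z with a role in molting (chromosome I, 2686640 to 2689429, minus strand), was at 232, 228 and 216 CPM in N2 EV and at 97.9, 75.7 and 91.0 CPM in the libraries labelled eat-2;mxl-2 EV. The groups did not overlap. The difference on the log2 scale was -1.35 ± 0.35 (SE) against N2, with an edgeR adjusted p of 0.0129. Against mxl-2 EV, at 230, 217 and 396 CPM, it was -1.67 ± 0.35 (SE), with an edgeR adjusted p of 0.004. The call against N2 was lost without eat-2;mxl-2 EV replicate 2 or 3. The cpz-1 and cpr-6 calls against mxl-2 were also made without any 1 of the 6 libraries compared.

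Against mxl-2 EV, 6 members were called lower and 0 higher, where 7.86% of all tested genes were called and 4.25% were called lower. Without mxl-2 EV replicate 2 the count was 3. Beside cpr-6, cpz-1 and lmp-2 these were asp-11, asp-12 and asp-13. asp-13 was at 123, 137 and 401 CPM in mxl-2 EV and at 32.3, 37.6 and 35.5 CPM in the libraries labelled eat-2;mxl-2 EV. Its log2 fold change was -2.65 ± 0.61 (SE), with an edgeR adjusted p of 0.00742, and was -1.89 and not called without mxl-2 EV replicate 3. That of asp-12 was -1.65 ± 0.49 (SE), with an edgeR adjusted p of 0.0376, and it was not called without any 1 of the 6 libraries.

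Against eat-2 EV, 2 members were called higher and 6 lower, where 18.4% of all tested genes were called, 9.54% higher and 8.89% lower. The higher ones were cpr-5, given above, and asp-8, at 31.7, 35.2 and 28.8 CPM against 5.13 and 3.62 CPM. The log2 fold change of asp-8 was 2.87 ± 0.87 (SE), with an edgeR adjusted p of 0.026, and was not called without either eat-2 EV library or without eat-2;mxl-2 EV replicate 2. Beside lmp-2 and cpr-6, the lower ones were asp-11, asp-12, asp-13 and asp-16. asp-13 stood at 303 and 88.0 CPM in eat-2 EV and had a log2 fold change of -2.48 ± 0.64 (SE), with an edgeR adjusted p of 0.0128, or -1.33 and no call without eat-2 EV replicate 1. asp-12 stood at 48.7 and 27.2 CPM, with a log2 fold change of -1.58 ± 0.53 (SE) and an edgeR adjusted p of 0.0391, a call that was lost without any 1 of the 5 libraries. Without eat-2 EV replicate 2, the library that stood apart, 3 members were called in this comparison in place of 8, and without eat-2;mxl-2 EV replicate 2 5 were. Sperm markers, at 3.5 and 34.3 CPM in eat-2 EV, summed to 798 to 1080 CPM in the double mutant, and epidermal markers, at 446 and 377 CPM, to 1220 to 1280 CPM. Their part in the result was not tested.

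Calls of the least abundant proteases rest on few reads. asp-16 had 3 and 153 counts in eat-2 EV and 6, 2 and 7 in the double mutant, so the groups overlapped. Its log2 fold change was -3.63 ± 0.89 (SE), with an edgeR adjusted p of 0.00984, and it was 0.28 without eat-2 EV replicate 2. asp-11, the annotated pseudogene, had 59, 43 and 43 counts in N2 EV and 3, 5 and 4 counts in the libraries labelled eat-2;mxl-2 EV. Its log2 fold change was -3.77 ± 0.93 (SE) against N2 (edgeR adjusted p 0.00902). It was -3.76 ± 0.97 (SE) against eat-2 (edgeR adjusted p 0.0126) and -3.50 ± 0.92 (SE) against mxl-2 (edgeR adjusted p 0.0187). Those calls were lost, in turn, without eat-2;mxl-2 EV replicate 1, without eat-2 EV replicate 2 (-1.03), and without mxl-2 EV replicate 2 or any double-mutant library.

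The summed intestinal markers, a list of 8 that includes the yolk protein genes vit-2 and vit-6, were 16000, 10300 and 18500 CPM in the libraries labelled eat-2;mxl-2 EV. They were 31600 to 50800 CPM in N2 EV and 50200 to 107000 CPM in mxl-2 EV. The mean log2 CPM over the 8 genes, which weights each gene equally, was 7.41 ± 0.064 in the double mutant, 7.57 ± 0.044 in N2 EV and 8.29 ± 0.357 in mxl-2 EV (SD, n = 3 for each). None of the 8 was at 0 in every library of a group. The part of tissue makeup in the protease values was not tested.

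Whole lists were compared next, since the members named above were those called. In the libraries labelled eat-2;mxl-2 EV against N2 EV, 14 of 21 V-ATPase genes had positive values, with a median log2 fold change of 0.25. Positive values were also seen in 7 of the 15 aspartyl proteases and 3 of the 10 cysteine proteases. The median was -0.10 over the aspartyl proteases, -0.17 over the cysteine proteases and -0.05 over all tested genes. On the TPM scale these medians were 0.49, 0.16, 0.09 and 0.12, so the sign of both protease medians and of all genes depends on the scaling. The difference between the lists was not tested.

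**Figure D4:**
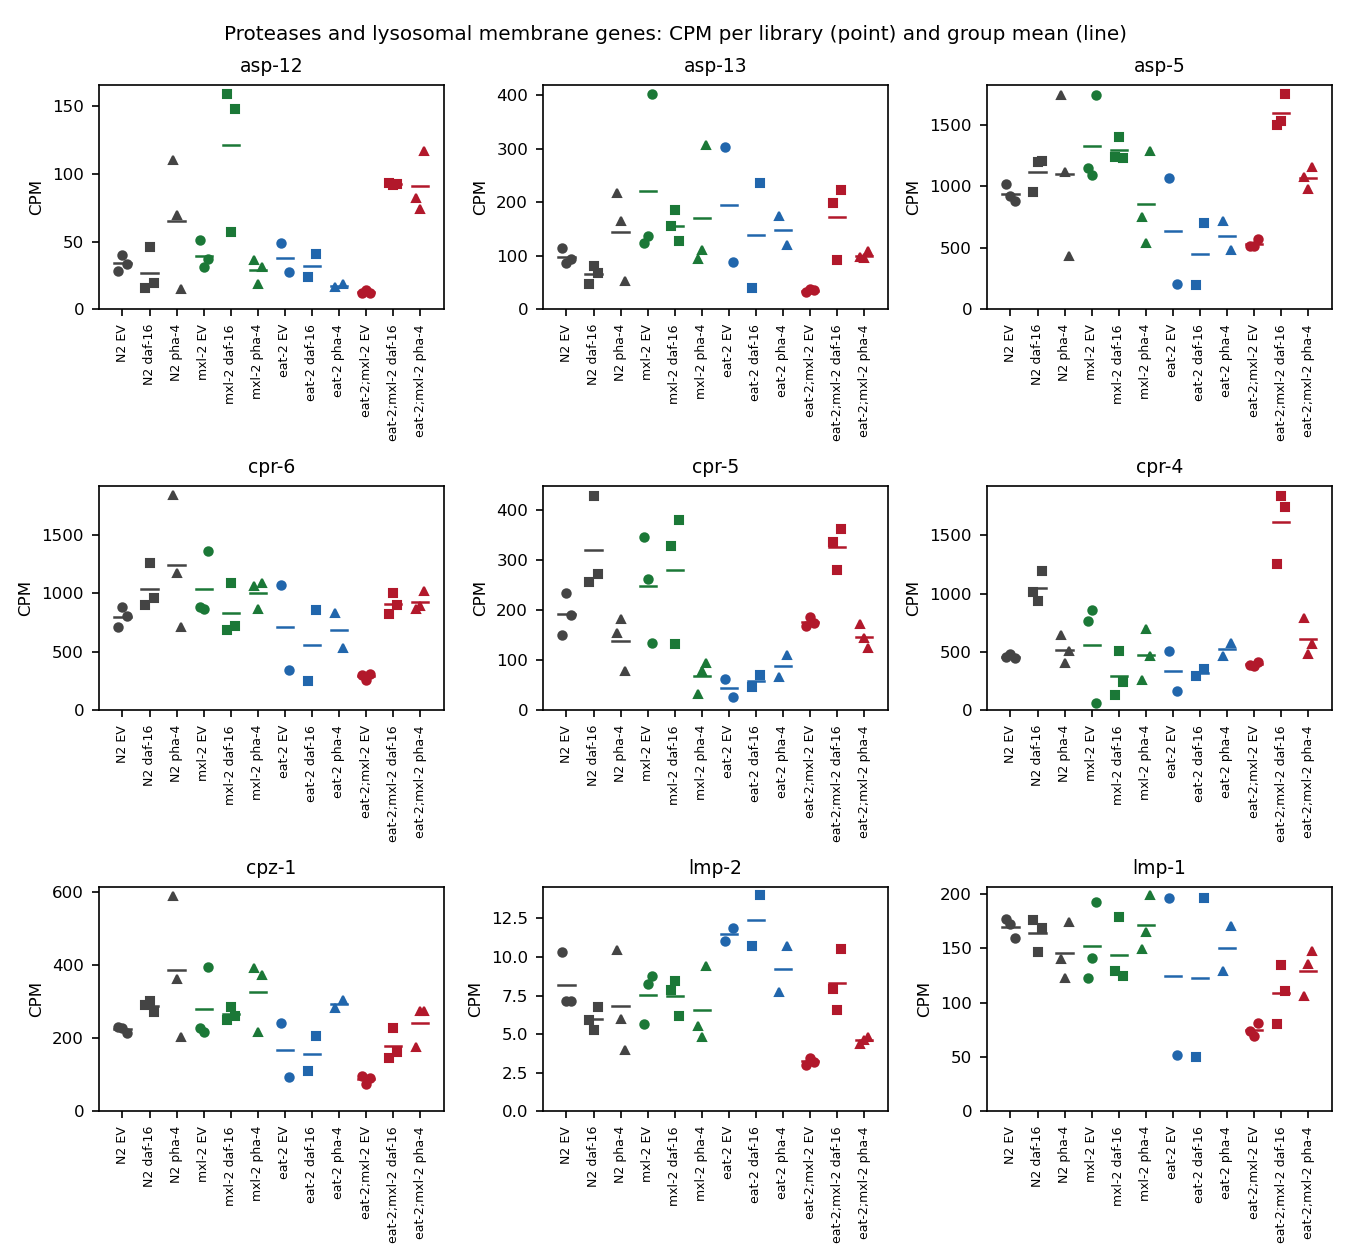
CPM of 9 protease and lysosomal membrane genes per library (points) and group mean (lines) in the 12 groups. The 3 libraries labelled eat-2;mxl-2 EV lie close together and low for asp-12 (12 to 13.97 CPM), asp-13, cpr-6, cpz-1 and lmp-2, while the lowest cpr-5 value, 27 CPM, is in eat-2 EV.

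RNAi against daf-16 or pha-4 was examined within each strain, first in the double mutant. On daf-16 RNAi, 7 members were called higher and 0 lower than in the libraries labelled eat-2;mxl-2 EV. Of all tested genes, 9.55% were called in this comparison and 6.75% were called higher. The libraries did not overlap for 25 members that were higher and 3 that were lower. Of all 17354 tested genes 50.5% did not overlap, with 4876 higher and 3889 lower. The members were asp-5, asp-11, asp-12, asp-13, cpr-4, cpr-6 and lmp-2, so that 4 were aspartyl proteases, 2 cathepsin B-like genes and 1 a lysosomal membrane gene.

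asp-12 had the smallest p of the members. It was at 12.04, 13.97 and 12 CPM in the libraries labelled eat-2;mxl-2 EV. It was at 93.3, 91.9 and 92.4 CPM on daf-16 RNAi and at 82.5, 74.2 and 117 CPM on pha-4 RNAi. Neither RNAi group overlapped the EV libraries. The log2 fold change was 2.87 ± 0.51 (SE) on daf-16 RNAi (edgeR adjusted p 0.00163) and 2.84 ± 0.51 (SE) on pha-4 RNAi (edgeR adjusted p 0.00402).

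The EV libraries of the double mutant were the lowest asp-12 group in the series. asp-12 was at 28.3, 40.4 and 33.7 CPM in N2 EV. In N2 it was at 16.0, 45.8 and 19.2 CPM on daf-16 RNAi, and at 111, 69.9 and 15.1 CPM on pha-4 RNAi. In mxl-2 it was at 50.8, 30.9 and 37.5 CPM on EV and at 159, 56.7 and 148 CPM on daf-16 RNAi. Every mxl-2 library on daf-16 RNAi thus lay above every mxl-2 EV library, as in the double mutant. Both RNAi groups of N2 overlapped N2 EV. Replicates in these RNAi groups spread over a wide range. edgeR did not call asp-12 in any RNAi comparison of N2, mxl-2 or eat-2.

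cpr-4, a secreted cathepsin B-like protease (chromosome V, 6614674 to 6615851, plus strand), was at 392, 381 and 413 CPM in the libraries labelled eat-2;mxl-2 EV. On daf-16 RNAi it was at 1253, 1838 and 1742 CPM, all above them. The fitted log2 fold change was 2.03 ± 0.58 (SE), with an edgeR adjusted p of 0.0311. The calls of cpr-4, cpr-6, asp-5, asp-11 and asp-13 on daf-16 RNAi each held in 1 of 6 fits that left out a library, the one without daf-16 replicate 2. In N2 cpr-4 was at 455, 479 and 446 CPM on EV and at 1018, 939 and 1196 CPM on daf-16 RNAi, again without overlap. That log2 fold change was 1.19 ± 0.57 (SE) at an unadjusted edgeR p of 0.0455 and an adjusted p of 1, so it was not called.

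cpr-6 was at 824, 1000 and 899.6 CPM in the double mutant on daf-16 RNAi, close to its N2 EV level. This gave a log2 fold change of 1.63 ± 0.39 (SE), with an edgeR adjusted p of 0.0139. On pha-4 RNAi cpr-6 was at 868, 893 and 1023 CPM, with a log2 fold change of 1.66 ± 0.39 (SE) and an edgeR adjusted p of 0.0303. That pha-4 call of cpr-6 was lost without any 1 of the 6 libraries. lmp-2 was at 7.93, 6.54 and 10.5 CPM on daf-16 RNAi, with a log2 fold change of 1.36 ± 0.31 (SE) and an edgeR adjusted p of 0.0101, a call lost without EV replicate 1 or 3 or daf-16 replicate 3.

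asp-13 was at 199, 92.4 and 223 CPM on daf-16 RNAi, all above the 32.3 to 37.6 CPM of the EV libraries, with a log2 fold change of 2.29 ± 0.60 (SE) and an edgeR adjusted p of 0.0203. asp-5 was at 512, 511 and 571 CPM on EV and at 1502, 1535 and 1751 CPM on daf-16 RNAi. Its log2 fold change was 1.59 ± 0.48 (SE), with an edgeR adjusted p of 0.0407. asp-11 rose from 3 to 5 counts on EV to 29, 29 and 44 counts, with a log2 fold change of 3.14 ± 0.92 (SE) and an edgeR adjusted p of 0.0337.

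On pha-4 RNAi 3 members were called higher and 0 lower in the double mutant, where 1.49% of all tested genes were called and 0.715% were called higher. Beside asp-12 and cpr-6 the third was cpz-1, at 177, 275 and 274 CPM against 75.7 to 97.9 CPM on EV. Its log2 fold change was 1.46 ± 0.35 (SE), with an edgeR adjusted p of 0.0339, and this call held only without pha-4 replicate 1 among the 6 fits that left out a library. The asp-12 calls on both RNAi treatments were also made by every alternative setting and without any 1 library. On daf-16 RNAi the count of members called was 1 without EV replicate 1 or 3 or daf-16 replicate 3, 2 without EV replicate 2 or daf-16 replicate 1, and 10 without daf-16 replicate 2. On pha-4 RNAi it was 1 without any EV library or without pha-4 replicate 2 or 3, and 2 without pha-4 replicate 1.

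Tissue markers moved in the same libraries. The summed intestinal markers were 10300 to 18500 CPM in the libraries labelled eat-2;mxl-2 EV, 24100 to 42900 CPM on daf-16 RNAi and 31200 to 38600 CPM on pha-4 RNAi, while their mean log2 CPM was 7.41 ± 0.064, 7.55 ± 0.252 and 7.58 ± 0.0907 (SD, n = 3 for each). The summed sperm markers, 31 major sperm protein genes, were 798 to 1080 CPM on EV, 87.1 to 150 CPM on daf-16 RNAi and 148 to 277 CPM on pha-4 RNAi. The summed epidermal markers were 1220 to 1280 CPM on EV and 442 to 697 CPM on daf-16 RNAi, and 634 to 1210 CPM on pha-4 RNAi. Oocyte and embryo markers summed to 4260 to 6490 CPM on EV, 1890 to 7150 CPM on daf-16 RNAi and 8290 to 11900 CPM on pha-4 RNAi. Their part in the result was not tested.

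V-ATPase genes showed smaller values in the same comparisons. On daf-16 RNAi in the double mutant, the median log2 fold change was 0.15 over the V-ATPase genes, 0.93 over the aspartyl proteases, 0.96 over the cysteine proteases and 0.09 over all tested genes. The V-ATPase median turned to -0.15 on the TPM scale, where that of all genes was -0.10. By the edgeR adjusted p, vha-1, a proteolipid gene, was nearest to a call. It was at 161, 196 and 181 CPM on EV and at 303, 201 and 302 CPM on daf-16 RNAi, without overlap. Its log2 fold change was 0.58 ± 0.20 (SE), with an edgeR adjusted p of 0.0557. Without replicate 2 of the daf-16 RNAi group it was called, together with vha-9 and vha-18. The a subunit gene vha-7 was lower there and was not called by the main fit. DESeq2 called it at -0.94 ± 0.32 (SE), with an adjusted p of 0.0278. limma on log2(TPM + 1) called it at -0.95 ± 0.29 (SE), with an adjusted p of 0.0383. edgeR with only these groups fitted called vha-7 lower and vha-6 higher.

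**Figure D5:**
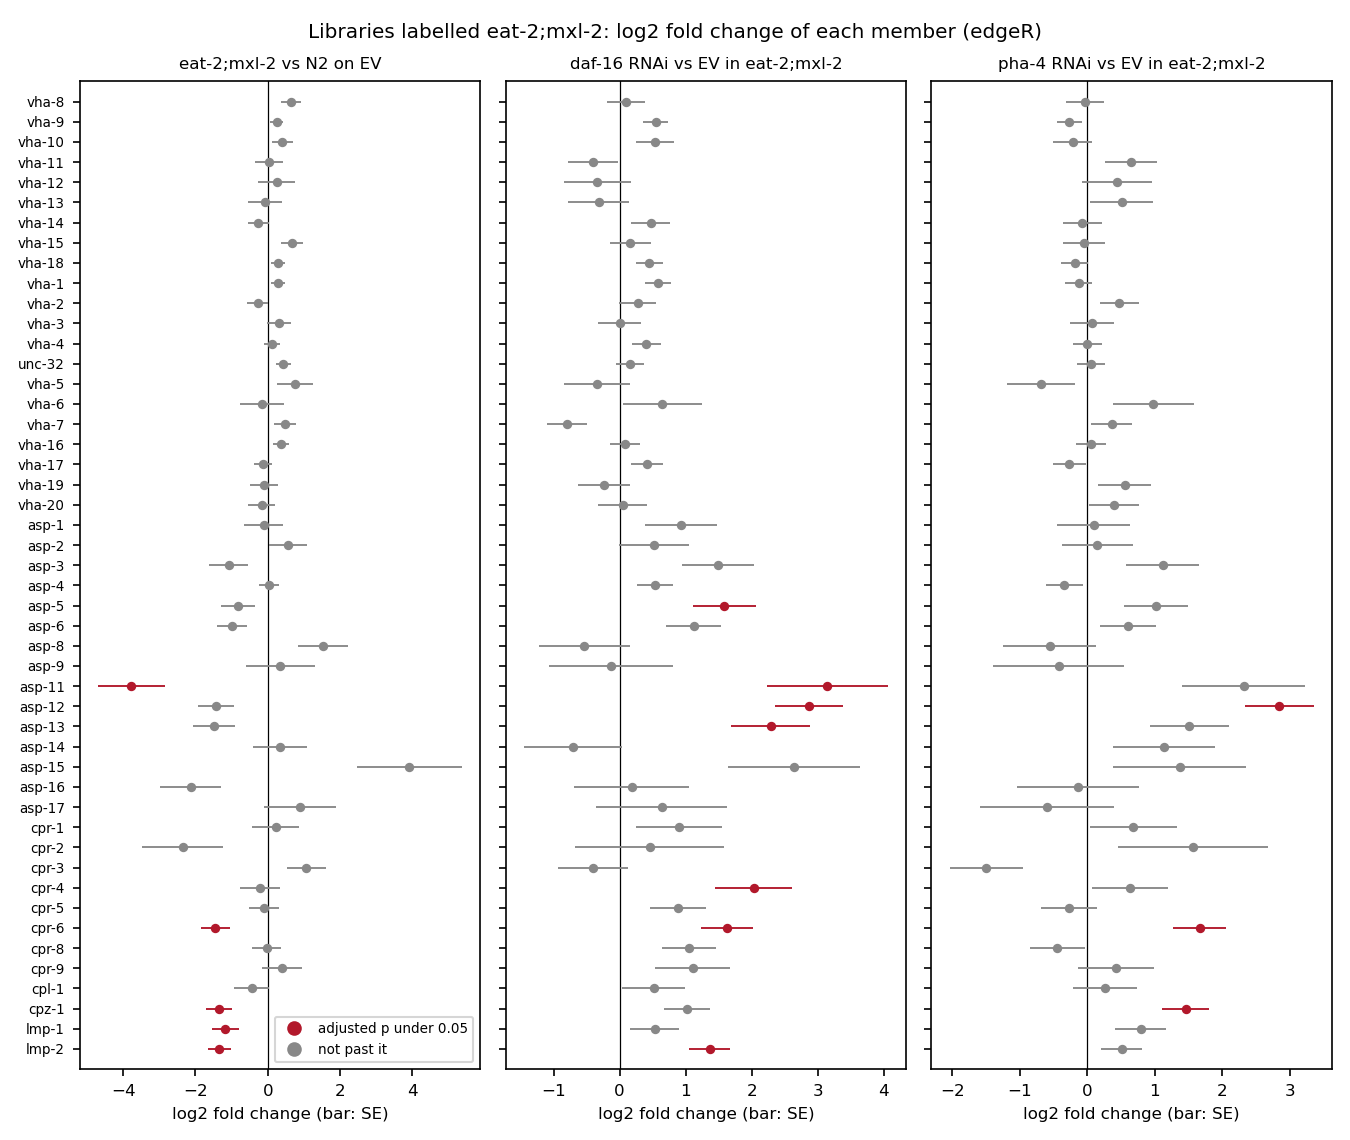
log2 fold change of the 48 genes with SE bars (edgeR) in libraries labelled eat-2;mxl-2 EV against N2 EV (left), and in the double mutant on daf-16 RNAi (middle) and on pha-4 RNAi (right) against EV. Red points passed an adjusted p of 0.05 and are all proteases or lmp genes, with asp-12 at 2.87 and 2.84 in the RNAi panels, and the panels share the 3 EV libraries.

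In N2, mxl-2 and eat-2 the RNAi treatments called few members. On daf-16 RNAi edgeR called 0 of 48 members in N2 (2 at an unadjusted p under 0.05), where 0.248% of all tested genes were called. The mxl-2 strain had 0 calls (2 at an unadjusted p under 0.05), where 0.127% were called, and eat-2 had 0 calls (0 at an unadjusted p under 0.05), where 0.0115% were called. DESeq2 called 0, 1 and 0 members in these. In mxl-2 edgeR called 1 without EV replicate 3 or without daf-16 replicate 2. On pha-4 RNAi edgeR called 0 members in N2 (3 at an unadjusted p under 0.05), where 0.323% of all genes were called, and 0 in eat-2 (2 at an unadjusted p under 0.05), where 1.17% were. DESeq2 called 0 and 1 members in these. In eat-2 edgeR called 3 without EV replicate 1, the V-ATPase genes named above.

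The test of whether the eat-2 difference depends on mxl-2 used the 4 strains on EV. It called 1 member, asp-13, where 1.27% of all tested genes were called and 0.617% were called lower. The other 2 tests asked whether the response to daf-16 or pha-4 RNAi differed between eat-2 and N2. They called 0 members, where 0% and 0.00576% of all tested genes were called. At an unadjusted p under 0.05 there were 0 members for daf-16 and 3 for pha-4 RNAi, and DESeq2 called 0 and 1.

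Further lysosome genes were counted from a list of 35, all of which were tested. The list holds lysosomal hydrolases, transporters, trafficking and nutrient-sensing factors, cysteine protease inhibitors and genes related to the V-ATPase. On daf-16 RNAi in the double mutant 10 of the 35 were called higher and 1 lower, where 6.75% and 2.81% of all tested genes were. On pha-4 RNAi 2 were called higher and 0 lower, where 0.715% of all tested genes were called higher. Against N2 EV 1 was called higher and 7 lower, where 4.96% and 7.15% of all tested genes were. The counts against eat-2 EV were also 1 and 7, where 9.54% and 8.89% were. Against mxl-2 EV 3 were called lower, where 4.25% were. In eat-2 EV against N2 EV 1 was called lower, where 0.617% of all tested genes were. It was ncr-1, with a log2 fold change of -1.21 ± 0.25 (SE) and an edgeR adjusted p of 0.0223. The 1 gene called higher in the double mutant against N2 EV and against eat-2 EV was spe-5. It is related to the V-ATPase and is not a member only because its name falls outside the rule. Its log2 fold change was 0.87 ± 0.22 (SE) against N2 EV (edgeR adjusted p 0.0108) and 0.91 ± 0.25 (SE) against eat-2 EV (edgeR adjusted p 0.0165).

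The lysosome genes with the smallest p in the double mutant on daf-16 RNAi were nuc-1 and gba-1. nuc-1, which encodes the lysosomal DNase II, had a log2 fold change of 1.97 ± 0.30 (SE) with an edgeR adjusted p of 0.000382. gba-1, a glucocerebrosidase gene, had a log2 fold change of 2.10 ± 0.34 (SE) with an edgeR adjusted p of 0.000622. cpi-2, which encodes a cystatin inhibitor of cysteine proteases, had a log2 fold change of -0.92 ± 0.23 (SE) against N2 EV (edgeR adjusted p 0.00947) and 0.81 ± 0.23 (SE) on daf-16 RNAi (edgeR adjusted p 0.0297). Against eat-2 EV cpi-2 was at -1.33 ± 0.25 (SE), with an edgeR adjusted p of 0.0016. It was not called against mxl-2 EV, at -0.40 ± 0.23 (SE), or on pha-4 RNAi in the double mutant, at 0.00 ± 0.23 (SE).

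A list of 6 known or proposed regulators was read from the same fit, and elt-2, nhr-31 and ceh-6 of that list were not called in any comparison. hlh-30, the worm TFEB and an activator of lysosomal genes, had a log2 fold change of -1.06 ± 0.24 (SE) in the libraries labelled eat-2;mxl-2 EV against N2 EV, with an edgeR adjusted p of 0.00524. Against mxl-2 EV it was -0.82 ± 0.24 (SE), with an edgeR adjusted p of 0.0361. mml-1 was at -0.83 ± 0.27 (SE) against N2 EV, with an edgeR adjusted p of 0.045. Both genes were also lower in eat-2 EV than in N2 EV without overlap, but were not called. There hlh-30 was at -0.82 ± 0.275 (SE) and mml-1 at -1.15 ± 0.31 (SE), with edgeR adjusted p of 0.119 and 0.0716. In the double mutant against eat-2 EV they were at -0.25 and 0.32 and were not called. mxl-3, which opposes HLH-30, was at -1.09 ± 0.26 (SE) on pha-4 RNAi in the double mutant, with an edgeR adjusted p of 0.0315. Whether the calls of the regulators and of the further lysosome genes hold without single libraries was not examined.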

How the data were processed

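The authors deposited raw read counts per gene, whole numbers with differing column totals, and TPM values scaled by the authors, for 17907 genes in 33 libraries; every listed gene reached at least 10 counts in a library. The submitters' processing notes name FastQC, Trimmomatic, STAR 2.4.2a, RSEM 1.2.23, featureCounts 1.4.6-p5 and the build WBcel235, without roles. Strand use in counting is not given in the sources used here, and positions are from the Ensembl annotation of WBcel235. Precision follows total counts of 20199019 to 31483909 per library.

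Counts were tested with edgeR 4.0.16 (R 4.3.3): TMM factors, filterByExpr (17354 genes), 12 group means, no covariate, 13 comparisons and 3 interactions, with Benjamini-Hochberg adjustment within each. CPM are divided by TMM factors. The edgeR, DESeq2 1.42.0 and limma 3.58.1 steps were tested on simulated data. P-values measure the spread between these synchronised populations.

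The members and lists were chosen with earlier results of these data known. All members could be named, with test values for each called member and for others nearest to a call, the latter chosen after seeing the values. Alternatives were RLE factors, no filter, DESeq2, a replicate block, limma on log2(TPM + 1), only the groups compared, and leaving out each library. Promoter sequences were not used here.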

Additional observations from a re-analysis of the deposited data

Results flagged for a closer look

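asp-13 was the 1 member whose eat-2 difference depended on mxl-2 by the interaction test. The 3 libraries of N2 EV gave 114.1, 86.9 and 94.6 CPM, and those of mxl-2 EV gave 123, 137 and 401 CPM. Replicates of eat-2 EV stood at 303 and 88.0 CPM. The 3 libraries labelled eat-2;mxl-2 EV lay between 32.3 and 37.6 CPM. The interaction was -3.64 ± 0.86 (SE) on the log2 scale, with an edgeR adjusted p of 0.0351. Over the 6 alternative settings the adjusted p was between 0.00251 and 0.0579, and 3 of the settings kept the call. Leaving out each of the 11 libraries in turn gave values between -4.46 and -2.49, and 3 of these fits kept the call.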

How the results depend on the processing

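Counts of members called moved by over 1.5 times as follows. With only the groups compared in the fit, edgeR called 0 members in eat-2 against N2 (1 in the report), 26 in the double mutant against N2 (5), 5 against eat-2 (8), 20 against mxl-2 (6), 2 on daf-16 RNAi in N2 (0), 19 on daf-16 RNAi in the double mutant (7), 0 on pha-4 RNAi in mxl-2 (1), 23 on pha-4 RNAi in the double mutant (3) and 0 in the eat-2 by mxl-2 interaction (1); this fit estimates the spread from those groups alone. It called 8732 genes in the double mutant against N2, 3557 against mxl-2, and 6618 and 7408 on daf-16 and pha-4 RNAi in the double mutant, against 2101, 1364, 1658 and 259. DESeq2 called 3 in eat-2 against N2, 1 on daf-16 RNAi in mxl-2, 2 on pha-4 RNAi in mxl-2, 1 on pha-4 RNAi in eat-2, 2 in the eat-2 by mxl-2 interaction and 1 in the pha-4 interaction. Over all genes DESeq2 called 1947 (11.2%) in eat-2 against N2, 466 on daf-16 RNAi in mxl-2, 403 on pha-4 RNAi in mxl-2, 1117 on pha-4 RNAi in eat-2, 1083 and 203 in these interactions, against 137, 22, 154, 203, 221 and 1 in the report's fit. RLE factors and no filter each gave 0 in eat-2 against N2, no filter gave 2 in the eat-2 by mxl-2 interaction, and limma on TPM gave 0 there. With a replicate block, the count was 0 in eat-2 against N2, 0 on pha-4 RNAi in mxl-2, 1 on pha-4 RNAi in the double mutant and 0 in the eat-2 by mxl-2 interaction. The causes of these shifts were not tested.

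Same-numbered libraries did not deviate together throughout, with correlations from -0.92 to 0.75, so the numbers were not taken as pairs. The r of -0.92 was between eat-2 EV and eat-2 daf-16 RNAi; a block with these numbers crossed, chosen after seeing the data, called 323 genes and 2 members, against 0 and 0 with the numbers as labelled.

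Leaving out 1 library in turn gave 0 to 2 members in eat-2 against N2, 2 to 4 in the double mutant against N2, 3 to 8 against eat-2, 3 to 5 against mxl-2, 0 to 1 on daf-16 RNAi in mxl-2, 1 to 10 on daf-16 RNAi in the double mutant, 0 to 2 on pha-4 RNAi in mxl-2, 0 to 3 on pha-4 RNAi in eat-2, 1 to 2 on pha-4 RNAi in the double mutant and 0 to 2 in the eat-2 by mxl-2 interaction; the remaining comparisons stayed at 0. Such fits hold fewer samples. 1 value changed sign: asp-16 in the double mutant against eat-2 was 0.281 without eat-2 EV replicate 2, in a range from -4.57. Of the 32 member calls, DESeq2 made 32, no filter 30, RLE factors 28, only the groups compared 26, the replicate block 23 and limma on TPM 22. Members with few counts (asp-9, asp-11, asp-15, asp-16 and cpr-2) are limited by depth.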
